A study of Mus musculus with 15 samples.

Results

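Gata1, Gata2 and the transcription factors that work beside them were followed through LSK cells, the lineage-negative c-Kit+ Sca1+ compartment of mouse bone marrow that contains stem cells and early progenitors. The 10 members (Gata1, Gata2, Zfpm1, Tal1, Lyl1, Lmo2, Nfe2, Fli1, Erg and Runx1) were chosen by name and found by matching the Ensembl identifiers of the count table to mouse symbols. They are 10 of 45232 gene IDs and 10 of the 17834 genes that passed the filter on low counts, so no member was lost to it. The 15 libraries fall into 5 groups of 3. All mice were C57BL/6 by the labels. The 4 mutant groups held CD45.2+ LSK cells with the alleles IDH2 R140Q and JAK2 V617F, sorted from transplant recipients that were given vehicle, AG221 (an inhibitor of mutant IDH2), ruxolitinib (a JAK kinase inhibitor, Rux in the plots) or both drugs (combination, combo in the plots). The fifth group was WT LSK cells, labelled CD45.2+ as well, with no days of dosing or time of a last dose recorded. The paper does not state whether these WT cells came from transplanted or gavaged mice. By the labels the doses were 60 mg/kg for ruxolitinib and 40 mg/kg for AG221, given by gavage over 21 to 28 days, the last about 1.5 hours before death. The study's methods allow a second, higher dose of AG221, and the dose of a single library is not given. In that model the alleles are switched on by the interferon-inducible Mx1-Cre, and the irradiated hosts carry CD45.1 marrow cells from a competitor, which the sort on CD45.2 was meant to leave out. Over all experiments the mice, males and females, were between 6 months and 1.5 years old, with no age given per group. Whether a library came from 1 mouse is not given in the sources used here, so the p-values measure the spread between libraries.

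Gata1 and Gata2 encode zinc finger proteins that bind GATA motifs. Gata2 maintains stem and progenitor cells, while Gata1 drives the erythroid, megakaryocyte and mast cell lineages and replaces Gata2 on shared sites as these cells mature. Both act in complexes, with Zfpm1 (FOG-1) as a cofactor, with the helix-loop-helix proteins Tal1 or Lyl1 tethered through Lmo2 and Ldb1, and next to sites of the ETS factors Fli1 and Erg, of Runx1 and of Nfe2.

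The promoters of members that differed between groups are shown because several members are known to bind regulatory regions of other members. RefSeq promoter windows of 300 bases (GRCm38.p6, 250 before to 50 after an annotated start) were present for 7 of the 10 members, 12 windows in all. Lmo2, Nfe2 and Fli1 had none. The windows below are those of the outermost start among the windows present for each gene. That of Gata1 lies wholly within the gene as annotated here, which extends further upstream. All printed windows read 5′ to 3′ on the strand of the gene. This is the minus strand for Gata1 and Runx1 and the plus strand for Gata2, Zfpm1 and Tal1. Capitals mark each match on either strand. The motif searched for GATA factors was AGATAA. The E-box motif of the Tal1 dimer was CAGATG. The motif for ETS factors was CAGGAAG, and TGTGGT served as the motif for Runx1.
Gata1 chrX:7967861-7968160: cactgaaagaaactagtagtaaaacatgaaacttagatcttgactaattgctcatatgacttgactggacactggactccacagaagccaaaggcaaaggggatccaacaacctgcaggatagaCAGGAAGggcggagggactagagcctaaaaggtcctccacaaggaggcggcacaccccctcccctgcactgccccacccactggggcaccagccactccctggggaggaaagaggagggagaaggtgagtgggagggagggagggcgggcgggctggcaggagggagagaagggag
Gata2 chr6:88193641-88193940: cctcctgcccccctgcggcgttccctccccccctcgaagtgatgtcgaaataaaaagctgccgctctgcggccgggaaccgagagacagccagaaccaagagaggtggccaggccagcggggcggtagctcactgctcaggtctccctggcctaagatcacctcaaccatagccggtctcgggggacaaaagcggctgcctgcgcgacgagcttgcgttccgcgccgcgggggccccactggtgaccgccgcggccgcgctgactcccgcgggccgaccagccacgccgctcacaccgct
Zfpm1 chr8:122281891-122282190: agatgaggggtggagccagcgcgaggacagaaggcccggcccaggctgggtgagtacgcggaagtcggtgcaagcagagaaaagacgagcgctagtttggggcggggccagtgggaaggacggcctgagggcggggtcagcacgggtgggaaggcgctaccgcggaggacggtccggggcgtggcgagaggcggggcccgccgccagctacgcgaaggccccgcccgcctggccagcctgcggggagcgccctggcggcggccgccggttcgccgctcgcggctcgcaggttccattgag
Tal1 chr4:115056176-115056475: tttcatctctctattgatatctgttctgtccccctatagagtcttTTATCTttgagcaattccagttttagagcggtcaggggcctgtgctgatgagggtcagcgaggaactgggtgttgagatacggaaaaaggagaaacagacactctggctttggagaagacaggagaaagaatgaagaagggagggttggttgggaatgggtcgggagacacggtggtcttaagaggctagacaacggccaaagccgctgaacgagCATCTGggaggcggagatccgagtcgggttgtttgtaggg
Runx1 chr16:92826025-92826324: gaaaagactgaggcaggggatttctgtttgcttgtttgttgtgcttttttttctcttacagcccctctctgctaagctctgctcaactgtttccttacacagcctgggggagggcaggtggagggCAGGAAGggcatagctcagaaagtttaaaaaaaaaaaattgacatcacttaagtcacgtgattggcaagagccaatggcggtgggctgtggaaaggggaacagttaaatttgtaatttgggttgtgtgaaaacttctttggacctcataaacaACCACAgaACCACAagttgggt

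The Gata1 window held 1 ETS match, this Tal1 window 1 GATA match and 1 E-box match, and this Runx1 window 1 ETS match and 2 RUNX matches. No match to these motifs was found in the Gata2 and Zfpm1 windows. Gata2, Tal1 and Runx1 each had a further window at an inner start, not printed, and these held 0 matches to any of the motifs. Among all 32851 windows of this length, 11.2% held the GATA motif, 17.2% the E-box, 13.3% the ETS motif and 16.8% the RUNX motif. The marked matches do not overlap one another, and a match is only a description. The windows differed in base composition. CG dinucleotides numbered 32 in the printed Gata2 window, 37 in that of Zfpm1, 11 in that of Tal1, 4 in that of Gata1 and 2 in that of Runx1, beside a median of 7 over all windows. The inner windows held 29 for Gata2, 22 for Tal1 and 35 for Runx1, so for Tal1 and Runx1 the number depended on the start. No DNA methylation was measured here.

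The libraries differed in ways that bear on the members. Total counts on genes ran from 18836625 to 32174287 with a median of 25545779, and the least counted member, Zfpm1, had between 23 and 339 reads in a library, while each of the others had at least 177. Replicates of the WT and combination groups are named with a B, and those of the 3 other groups with an A. The letter is not explained, and it cannot be told apart from the treatment where A and B groups are compared. The summed level of 12 immediate early genes followed the letter, at 3942 to 14751 CPM (counts scaled to the size of each library) in the A libraries and 703 to 1247 CPM in the B libraries. AG221 A8 and A10 and Rux A16 were low in GC-rich transcripts, with a balance of -0.774, -0.501 and -0.246. The balance is the median log2 deviation of the 3551 genes highest in GC content minus that of the 3552 lowest. The other 12 libraries lay between -0.075 and 0.281. Among them the combination libraries (0.171 to 0.281) lay above all vehicle (-0.075 to 0.0595) and WT (-0.0324 to 0.103) libraries. AG221 A9 (0.157), Rux A14 (0.249) and Rux A17 (0.131) also lay above the vehicle and WT libraries. Comparisons of the combination with vehicle or WT therefore also differ in this balance. The WT libraries carried Xist at 455 to 511 CPM and Ddx3y at no more than 0.101 CPM, while the mutant libraries had Xist at no more than 19.5 CPM and Ddx3y at 124 to 206 CPM, the pattern of female WT and male mutant cells, which the labels do not give. The markers of the sort were present in all libraries, with Kit at 740 to 1552 CPM and Ly6a, which encodes Sca1, from 13.1 CPM in vehicle A4 to 166 CPM in vehicle A1. Of the genes that carry the alleles, Idh2 was at 55.1, 65.9 and 124 CPM in AG221 A8 and A10 and Rux A16 against 212 to 568 CPM elsewhere, and Jak2 lay between 20.1 and 52.9 CPM. Gene counts cannot show the alleles themselves.

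Compared per length of transcript, the members spanned a wide range of levels. Averaged over the 15 libraries, Lmo2 (593 TPM, a level corrected for the length of the exons) and Nfe2 (442 TPM) were the most abundant. Fli1 (251 TPM), Gata1 (159 TPM) and Gata2 (153 TPM) followed. Erg stood at 60.8 TPM, Runx1 at 33.1 TPM, Lyl1 at 27.9 TPM and Tal1 at 16.1 TPM. Zfpm1 was the lowest at 2.84 TPM. The order of the abundant members was not the same in all groups. Mean Lmo2 was above mean Nfe2 in WT (1065 against 518 TPM) and with the combination (1072 against 547 TPM), but below it with vehicle (311 against 464 TPM), AG221 (187 against 259 TPM) and ruxolitinib (331 against 424 TPM). In the AG221 and ruxolitinib groups the ranges of both genes overlapped. With AG221 the highest mean was that of Fli1 (266 TPM), within the range of Nfe2. Gata2, at 134 to 181 TPM, was above Gata1, at 50.7 to 66.5 TPM, in every WT library. With AG221 Gata1 (126 to 189 TPM) was above Gata2 (31.1 to 101 TPM), and in the other mutant groups both genes overlapped. The highest CPM of a member exceeded its lowest by 12.9-fold for Zfpm1, 9.31-fold for Gata2, 8.68-fold for Lmo2 and 7.56-fold for Gata1, but by only 1.67-fold for Fli1 and 1.57-fold for Erg.

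**Figure D1:**
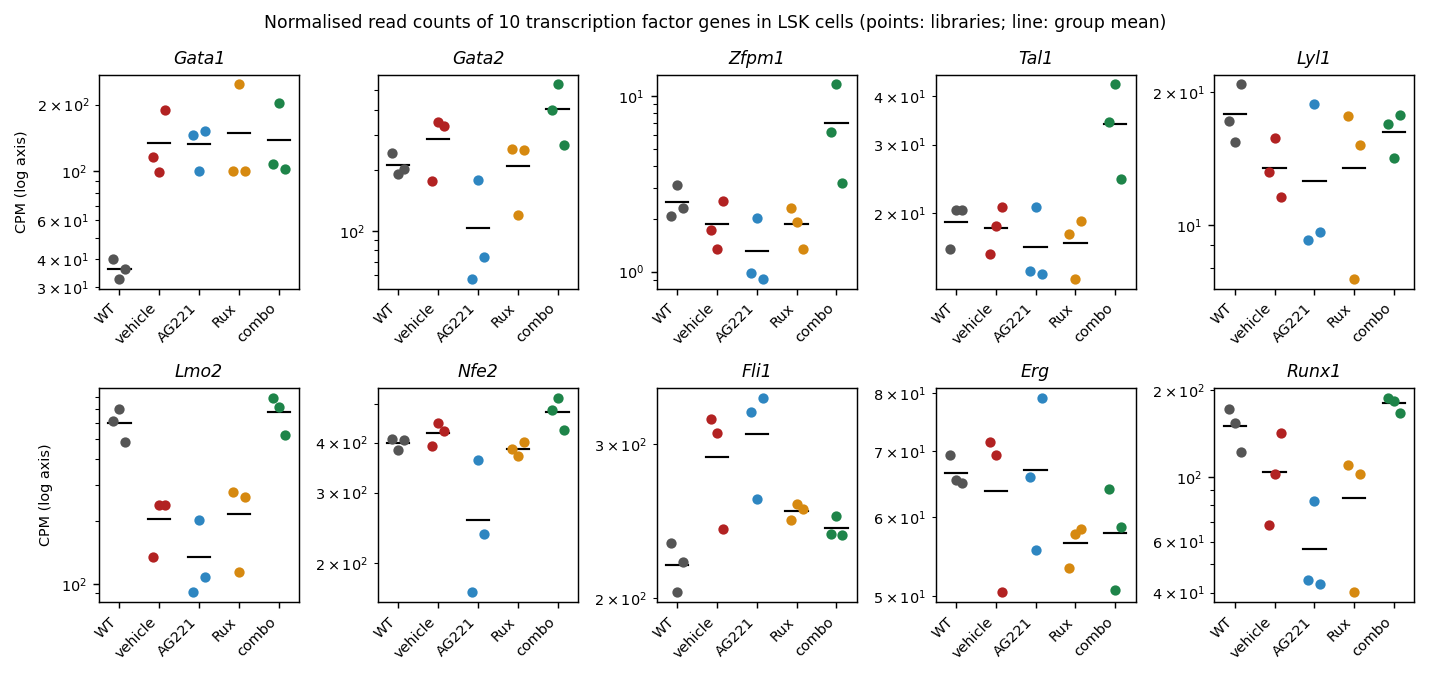
Each panel plots 1 member, with the normalised read count in CPM on a log axis and the 5 groups on the horizontal axis. Points are libraries and lines are group means of 3. The Gata1 points of all mutant groups (99.2 CPM and above) lie above the WT points (40.2 CPM and below), and the Lmo2 points of the combination and WT groups lie above those of the other groups.

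The first question was how the mutant cells differed from WT cells. Of the 10 members, 3 were called between vehicle and WT (adjusted p under 0.05), where 33.3% of all tested genes were called, so the share of members was near the background (15.4% of genes higher and 17.9% lower). Gata1 and Fli1 were higher and Lmo2 was lower in the mutant cells. Between the combination and WT, 1 member was called against 3.25% of genes (1.63% higher and 1.61% lower). With AG221 5 members were called (background 50.7%), and with ruxolitinib 2 (background 32.3%). The 4 comparisons share the WT libraries. Mutation, sex and any difference in transplantation or gavage cannot be told apart in them.

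Gata1, the driver of erythroid and megakaryocyte differentiation (ENSMUSG00000031162, chrX:7959260-7978071, minus strand), was at 40.2, 32.7 and 36.1 CPM in WT cells. It was at 116, 99.2 and 188 CPM with vehicle, and at 146, 100.5 and 152 CPM with AG221. It was at 100.6, 247 and 100.7 CPM with ruxolitinib, and at 108, 204 and 103 CPM with the combination. Every mutant library was therefore above every WT library, and the mutant groups overlapped one another. Gata1 was higher than in WT by a log2 fold change of 1.89 ± 0.380 (SE, n = 3 per group, adjusted p = 0.00531) with vehicle, 1.87 ± 0.380 (adjusted p = 0.00197) with AG221, 2.04 ± 0.382 (adjusted p = 0.00374) with ruxolitinib and 1.93 ± 0.380 (adjusted p = 0.0193) with the combination. The call for the combination was lost when combination B25 (adjusted p = 0.099), WT B28 (adjusted p = 0.0712) or WT B30 (adjusted p = 0.0801) was left out, at log2 fold changes of 1.55 to 2.02. The combination differed from vehicle by 0.04 ± 0.367 (adjusted p = 0.957), and no treatment changed Gata1 at the threshold. Because WT and mutant cells differed in sex and Gata1 is X-linked, it was set beside the other X-linked genes. The 601 X-linked genes tested had a median log2 fold change of -0.04 between vehicle and WT (autosomes -0.09), and 7 of them, Gata1 included, reached its value. Sex and mutation cannot be told apart in these comparisons. In sorted bulk cells, more cells that express a gene and more RNA per cell cannot be told apart either, which applies to each member.

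Gata2, the stem cell member of the pair (ENSMUSG00000015053, chr6:88193891-88207032, plus strand), did not share this pattern. It was at 243, 192 and 202 CPM in WT cells and at 178, 348 and 333 CPM with vehicle. With AG221 it was at 57.6, 178 and 73.9 CPM, with ruxolitinib at 257, 119.8 and 251 CPM, and with the combination at 402, 537 and 268 CPM. The AG221 group held the lowest libraries and the combination group the highest, and the vehicle group overlapped the WT, AG221, ruxolitinib and combination groups. Gata2 differed from WT by 0.43 ± 0.414 (adjusted p = 0.434) with vehicle and by 0.92 ± 0.417 (adjusted p = 0.185) with the combination, neither of which passed the test. With AG221 it was below every WT library and just missed the threshold (-1.04 ± 0.419, adjusted p = 0.0519). That difference was called in 5 of 15 alternatives, among them DESeq2 (-0.99, adjusted p = 0.0457). It was -0.52 with GC content offsets (adjusted p = 0.13). Without AG221 A8, AG221 A10 and Rux A16, which left only A9 in the AG221 group, it was -0.26. The libraries at 57.6, 73.9 and 119.8 CPM were AG221 A8 and A10 and Rux A16, those low in GC-rich transcripts, and the Gata2 transcript is more GC-rich (58.2%) than 92.5% of tested genes. With GC content offsets, Gata2 differed between AG221 and vehicle by -1.18 (adjusted p = 0.0484). Without these 3 libraries, again with only A9 left in the AG221 group, it differed by -0.71.

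The balance of both genes was read within each library as log2 of the Gata2 level over the Gata1 level in CPM, which needs no comparison of lengths because the same pair is compared in every library. It was 2.54 ± 0.056 (SD, n = 3) in WT, 1.08 ± 0.637 with vehicle, -0.52 ± 1.17 with AG221, 0.54 ± 1.37 with ruxolitinib and 1.56 ± 0.291 with the combination. Every mutant library (highest 1.89) lay below every WT library (lowest 2.48). The exact two-sided permutation test gave p = 0.1 for each mutant group against WT, the smallest value that 3 against 3 libraries allow, and 0.175 after adjustment over 7 comparisons. Against vehicle, AG221 (exact p = 0.3), ruxolitinib (exact p = 0.8) and the combination (exact p = 0.3) did not differ beyond the spread of libraries. The ruxolitinib mean rested on Rux A16 at -1.04, where the other libraries were at 1.35 and 1.32, and without it the difference from vehicle turned from -0.54 to 0.25. The AG221 mean rested on A8 at -1.34 and A10 at -1.04, while A9, at 0.82, lay within the vehicle range (0.618 to 1.81). A8, A10 and Rux A16 are the libraries low in GC-rich transcripts, and the part of base composition in these values was not tested.

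**Figure D2:**
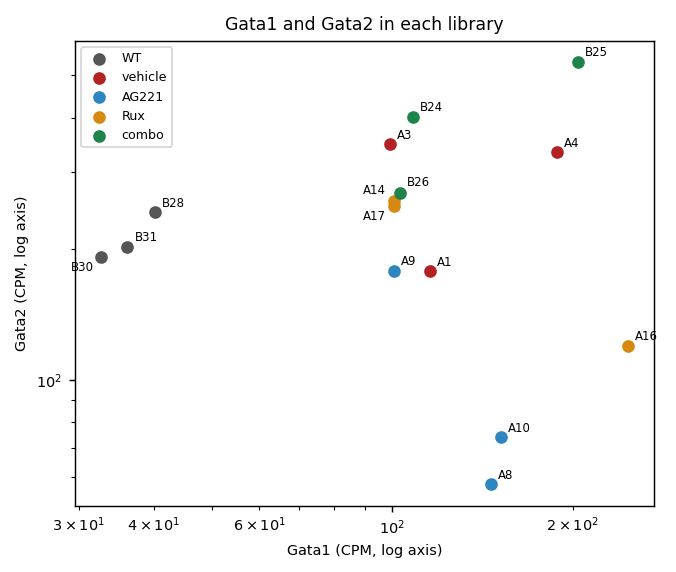
Gata1 (horizontal) and Gata2 (vertical) are plotted in CPM on log axes, 1 point per library, named by replicate and coloured by group. The 3 WT libraries stand apart at the left, below 41 CPM of Gata1, and AG221 A8, AG221 A10 and Rux A16 combine high Gata1 with the lowest Gata2.

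The GATA cofactor Zfpm1 (ENSMUSG00000049577, chr8:122282141-122337251, plus strand) was weakly expressed. It was at 2.07, 3.13 and 2.31 CPM in WT cells and at 1.73, 1.34 and 2.53 CPM with vehicle. It was at 0.983, 2.02 and 0.909 CPM with AG221, at 2.31, 1.92 and 1.34 CPM with ruxolitinib, and at 6.26, 11.7 and 3.19 CPM with the combination. All combination libraries were above all others, with the lowest of them only just above the highest WT library. The next question, whether treatment changed the mutant cells, gave 3 members called between combination and vehicle, all higher (background 12.5%, with 8.28% higher and 4.21% lower). Zfpm1 rose most of them, by 1.92 ± 0.457 (adjusted p = 0.0148). Its transcript has the highest GC content of the members (66.8%, above 99.3% of tested genes), and with offsets for GC content, which were added once the data had been seen, the difference was 0.80 (adjusted p = 0.281). The call was also lost without vehicle A1 (adjusted p = 0.0684), vehicle A3 (adjusted p = 0.0605) or combination B25 (adjusted p = 0.0839). Against WT the combination differed by 1.50 ± 0.449 (adjusted p = 0.0741). That difference was called in 2 of 15 alternatives, among them DESeq2 (1.52, adjusted p = 0.0225), and was 1.17 with GC content offsets (adjusted p = 0.13).

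Tal1, the helix-loop-helix partner of GATA factors (ENSMUSG00000028717, chr4:115056426-115071755, plus strand), was at 16.1, 20.3 and 20.3 CPM in WT and at 15.6, 18.5 and 20.7 CPM with vehicle. It was at 14.2, 20.7 and 13.9 CPM with AG221 and at 17.6, 13.5 and 19.1 CPM with ruxolitinib. The combination libraries were at 34.3, 43 and 24.5 CPM, all above the libraries of the other groups, which overlapped. Tal1 rose with the combination against vehicle by 0.89 ± 0.236 (adjusted p = 0.0249) and against ruxolitinib by 1.02 ± 0.237 (adjusted p = 0.0127). It differed from WT by 0.84 ± 0.236 (adjusted p = 0.0632). The difference from WT was called in 3 of 15 alternatives, among them DESeq2 (0.86, adjusted p = 0.0109) and GC content offsets (0.89, adjusted p = 0.0373). The call against vehicle was kept with GC content offsets (0.80, adjusted p = 0.0254) and was lost without vehicle A1 (adjusted p = 0.118) or A3 (adjusted p = 0.0676) or combination B24 (adjusted p = 0.081) or B25 (adjusted p = 0.124).

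Lyl1, the paralog of Tal1 (ENSMUSG00000034041, chr8:84701457-84704715, plus strand), did not follow it. It ranged from 15.4 to 20.8 CPM in WT, 11.6 to 15.7 CPM with vehicle, 9.28 to 18.8 CPM with AG221, 7.56 to 17.6 CPM with ruxolitinib and 14.2 to 17.7 CPM with the combination. The groups overlapped, and Lyl1 was called in none of the 11 comparisons. Its 3 lowest libraries were again Rux A16, AG221 A8 and AG221 A10, and its transcript is GC-rich (62.6%). With GC content offsets its sign between AG221 and WT turned from -0.50 to 0.68 (adjusted p = 0.0204).

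Lmo2, the bridge between Tal1 and GATA factors (ENSMUSG00000032698, chr2:103957986-103981878, plus strand), showed the widest separation between A and B libraries. It was at 610.1, 696 and 482 CPM in WT cells and at 792, 713 and 525 CPM with the combination. It was at 135, 240.1 and 241 CPM with vehicle, at 91.2, 204 and 108 CPM with AG221, and at 277, 114 and 262 CPM with ruxolitinib. The WT and combination libraries overlapped, and all 6 of them were above the 9 libraries of the other groups. Lmo2 was lower than in WT by -1.54 ± 0.364 (adjusted p = 0.01) with vehicle, -2.15 ± 0.372 (adjusted p = 0.000789) with AG221 and -1.45 ± 0.363 (adjusted p = 0.0122) with ruxolitinib. The last call was lost without WT B30 (adjusted p = 0.0531). It rose with the combination by 1.72 ± 0.366 (adjusted p = 0.00839) against vehicle, 2.33 ± 0.374 (adjusted p = 0.00227) against AG221 and 1.63 ± 0.365 (adjusted p = 0.01) against ruxolitinib. The combination and WT differed by 0.18 ± 0.356 (adjusted p = 0.779). The calls of Lmo2 between vehicle and WT and between combination and vehicle held in all 15 alternatives, between -1.65 and -1.29 and between 1.49 and 1.87. The groups low in Lmo2 are those named A and the groups high in it those named B, so this contrast cannot be told apart from the letter.

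Nfe2, a leucine zipper factor of megakaryocytes and erythroid cells (ENSMUSG00000058794, chr15:103248212-103258403, minus strand), was at 409.5, 384 and 406 CPM in WT, 392, 447 and 427 CPM with vehicle and 385, 371 and 401 CPM with ruxolitinib. With AG221 it was at 169, 362 and 237 CPM, each below the libraries of all other groups. With the combination it was at 483, 519 and 430.1 CPM. Between AG221 and vehicle no member was called (edgeR, background 0.987%). Nfe2 came closest with -0.72 ± 0.201 (adjusted p = 0.0719), followed by Gata2 with -1.47 ± 0.423 (adjusted p = 0.0774) and Runx1 with -0.88 ± 0.361 (adjusted p = 0.155). An unadjusted p under 0.05 was reached by 3 members and by 4498 of all 17834 tested genes. DESeq2 called 2 members, and up to 2247 of all genes were called under settings other than leaving out 1 library. Without AG221 A9, the library of that group that was not low in GC-rich transcripts, 4 members were called. With 1 library left out, up to 4672 of all genes were called. Leaving out A8, A10 and Rux A16 left only A9 in the AG221 group. The values were then -0.24 for Nfe2, -0.71 for Gata2 and -0.36 for Runx1. Nfe2 fell against WT by 0.64 ± 0.201 with AG221 (adjusted p = 0.0178), a call lost without A8 (adjusted p = 0.0631) or A10 (adjusted p = 0.0631).

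Ruxolitinib called no member against vehicle in edgeR (background 0.0168%), and DESeq2 called 0. An unadjusted p under 0.05 was reached by 0 members and by 813 of all tested genes. The member log2 fold changes ran from -0.45 to 0.15, each with an adjusted p of 1. Between AG221 and ruxolitinib edgeR called no member either (background 3.43%), with log2 differences from -1.02 to 0.30. There 3 members, and 4554 of all tested genes, had an unadjusted p under 0.05. DESeq2 called 1 member, and up to 2355 of all genes were called under settings other than leaving out 1 library.

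The ETS factors moved least. Fli1, which is needed for megakaryocytes (ENSMUSG00000016087, chr9:32422204-32542861, minus strand), was at 231, 203 and 219.8 CPM in WT and at 321, 309 and 239.8 CPM with vehicle. It was at 327, 259 and 339 CPM with AG221, 246 to 256 CPM with ruxolitinib and 236 to 249 CPM with the combination. All mutant libraries were above the WT libraries. Fli1 was higher than in WT by 0.41 ± 0.132 (adjusted p = 0.0312) with vehicle and 0.50 ± 0.132 (adjusted p = 0.0079) with AG221. The first of these was lost in 8 of 15 alternatives, 4 of which left out a library, with adjusted p between 0.0108 and 0.169. The second was lost without A8, A10 and Rux A16 (0.24), which left only A9 in the AG221 group. Erg, its close relative in stem cells (ENSMUSG00000040732, chr16:95359169-95586593, minus strand), ranged from 65 to 69.3 CPM in WT and from 50.5 to 79.2 CPM in the mutant libraries. Erg was called in none of the 11 comparisons.

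Runx1, a core factor of blood stem cells and megakaryocytes (ENSMUSG00000022952, chr16:92601466-92826149, minus strand), was at 172, 154 and 123 CPM in WT and at 68.6, 102 and 142 CPM with vehicle. It was at 44.1, 82.9 and 42.9 CPM with AG221, 111, 40.1 and 103 CPM with ruxolitinib, and 188, 184 and 167 CPM with the combination. The combination libraries were above those of all other mutant groups and overlapped WT. Runx1 was lower than in WT by -1.40 ± 0.365 (adjusted p = 0.00736) with AG221. That call was lost without A8, A10 and Rux A16 (-0.86), which left only A9 in the AG221 group. Between combination and vehicle it differed by 0.78 ± 0.360 (adjusted p = 0.182). Runx1 was lowest in AG221 A8 and A10 and Rux A16, and its GC content of 46.4% is above that of 35.5% of tested genes. Offsets for GC content left its difference between AG221 and WT at -1.21 (adjusted p = 0.00984). An antisense gene covers 0.882% of the Runx1 exons, and the strand of the counting is not stated.

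**Figure D3:**
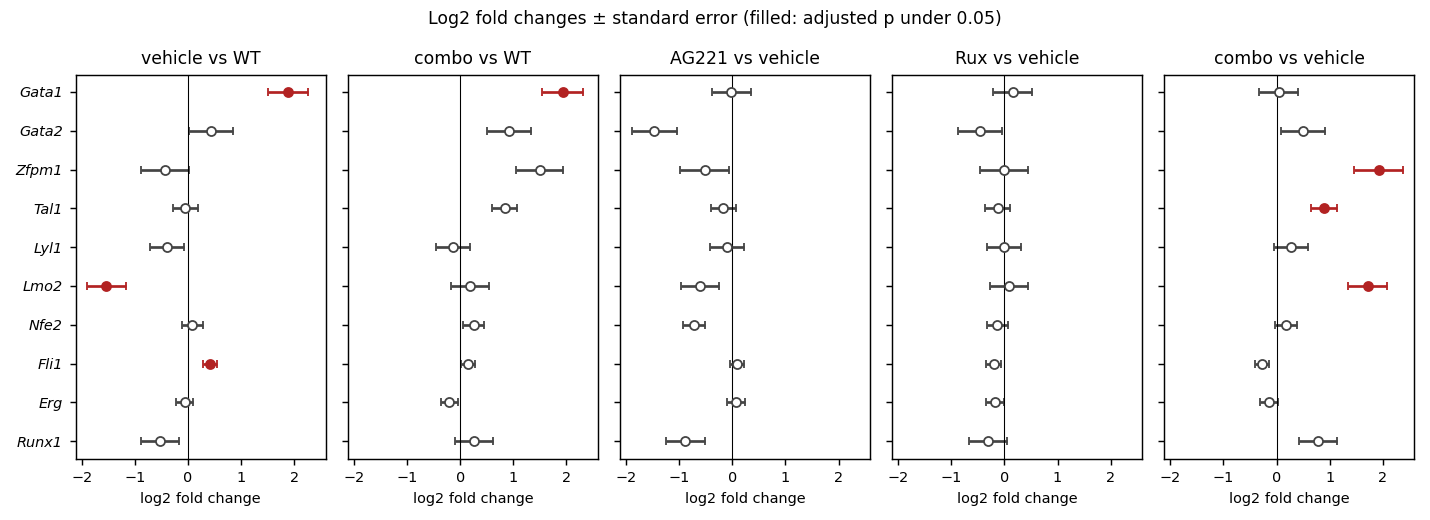
Log2 fold changes of the 10 members with their standard errors are plotted for 5 comparisons, vehicle and combination against WT and each treatment against vehicle. Filled points had an adjusted p under 0.05. Gata1 is filled in both comparisons with WT (1.89 and 1.93), Lmo2 at -1.54 against WT and 1.72 with the combination against vehicle, and the AG221 and ruxolitinib panels hold no filled point.

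The combination was next set against each single drug. Against AG221, 6 were called (background 33.2%, with 18.9% higher), all higher with the combination. They were Gata2 (1.96 ± 0.429, adjusted p = 0.00538), Zfpm1 (2.44 ± 0.471, adjusted p = 0.00354), Tal1 (1.06 ± 0.237, adjusted p = 0.00604), Nfe2 (0.90 ± 0.202, adjusted p = 0.00608), Runx1 (1.67 ± 0.368, adjusted p = 0.00562) and Lmo2. Without AG221 A8 and A10 and Rux A16, none of them was called, at log2 values of 1.16 for Gata2, 1.79 for Zfpm1, 0.69 for Tal1, 1.71 for Lmo2, 0.38 for Nfe2 and 1.10 for Runx1, a fit in which the 1 AG221 library left is assumed to vary like the other groups. With GC content offsets Zfpm1 was not called (0.47, adjusted p = 0.468), while Lyl1, at 0.37 (adjusted p = 0.387) without them, was called lower with the combination (-0.94, adjusted p = 0.00645). Fli1, at -0.36 ± 0.132 (adjusted p = 0.0505), just missed the threshold and was called lower in 7 of 15 alternatives, among them DESeq2 (-0.41, adjusted p = 0.0214) and the GC content offsets (-0.48, adjusted p = 0.026). Against ruxolitinib, 3 were called, all higher (background 12.4%, with 8.5% higher), namely Zfpm1 (1.93 ± 0.459, adjusted p = 0.0142), Tal1 and Lmo2, and that of Zfpm1 was lost with GC content offsets (0.69, adjusted p = 0.374). Tal1 and Zfpm1 were each also lost without combination B25 or Rux A16, which left Lmo2 alone.

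Whether the combination departed from the sum of both single-drug changes was tested as an interaction. Of the 10 members, 6 were called (background 8.42%, with 5.6% above the sum), all above the sum, namely Gata2, Zfpm1, Tal1, Lmo2, Nfe2 and Runx1. For Gata2, AG221 alone gave -1.47 and ruxolitinib alone -0.45 against vehicle, while the combination gave 0.49, a departure of 2.41 ± 0.594 (adjusted p = 0.0376). For Lmo2 the departure was 2.25 ± 0.510 (adjusted p = 0.0342). The adjusted p-values of all 6 lay between 0.0342 and 0.0474, close to the threshold. None was called when vehicle A3 or A4, AG221 A8 or A10, Rux A16 or A17, or combination B24 or B25 was left out, when A8, A10 and A16 were left out together, or in a fit of only the 4 mutant groups. The test sets the B letter of the combination against the A letter of the other 3 groups, and the letter and the departure cannot be told apart.

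**Figure D4:**
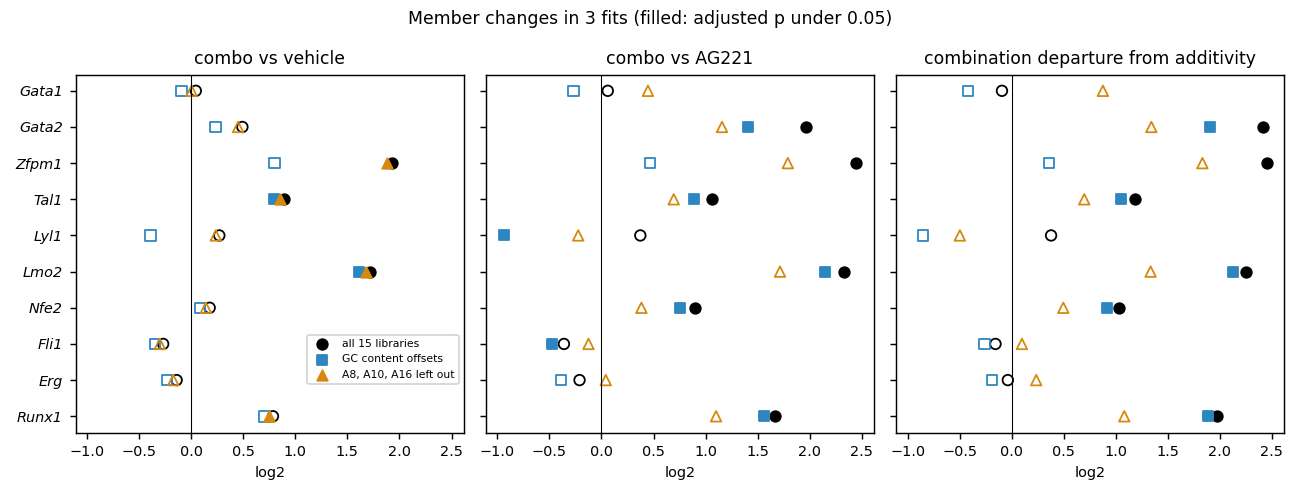
Member log2 fold changes (horizontal) are plotted for combination against vehicle, combination against AG221 and the departure from additivity, in the fit of all 15 libraries, with GC content offsets, and without AG221 A8, AG221 A10 and Rux A16. Filled symbols had an adjusted p under 0.05. Lmo2 and Tal1 stay filled in all 3 fits against vehicle, Zfpm1 opens with GC content offsets (0.80), and no triangle is filled in the other panels.

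Within the AG221 and ruxolitinib groups, the levels of several members differed between the libraries low in GC-rich transcripts and the others. AG221 A9, with a balance of 0.157, had Gata2 at 178 CPM, Lmo2 at 204 CPM and Runx1 at 82.9 CPM, while A8 and A10 of the same group, at -0.774 and -0.501, had 57.6 and 73.9, 91.2 and 108, and 44.1 and 42.9 CPM. Gata1 went the other way within this group, at 100.5 CPM in A9 against 146 and 152 CPM. In the ruxolitinib group, A16 was below A14 and A17 in Gata2, Lmo2 and Runx1 and above them in Gata1. Rux A16 also had the most Hbb-bs, a beta globin gene singled out after its values were seen, at 609 CPM against 5.12 to 109 CPM in the other libraries. The part of these differences between libraries in the member values beyond the fits above was not tested.

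**Figure D5:**
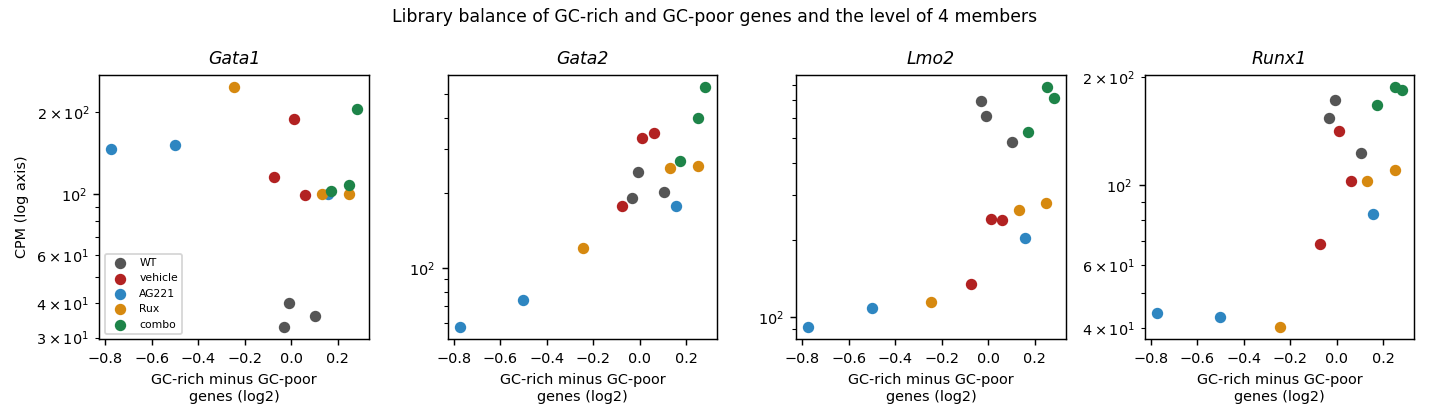
The horizontal axis is the median log2 deviation of the 3551 genes highest in GC content minus that of the 3552 lowest, and the vertical axis the level of Gata1, Gata2, Lmo2 or Runx1 in CPM on a log scale, with 1 point per library coloured by group. AG221 A8 and A10 and Rux A16, at -0.774, -0.501 and -0.246, are the leftmost points and are low for Gata2, Lmo2 and Runx1 but not for Gata1.

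Members also varied together over the 15 libraries, which share groups, letter and base composition, so these correlations of log2 CPM are descriptions. Lmo2 and Runx1 had r = 0.941 (0.935 after removing group means), Gata2 and Nfe2 0.926 (0.807), and Zfpm1 and Tal1 0.908 (0.744). Gata1 had r = -0.084 with Gata2 (-0.287 after removing group means) and ran opposite to Lyl1 at -0.672 (-0.816). The tested genes most like Gata1 were Mfsd2b (0.975), a sphingolipid transporter of red cells and platelets, Tango2 (0.966) and Slc14a1 (0.964), the urea transporter of red cells. Those most like Gata2 were Nt5c3 (0.987), Stat5b (0.964), which encodes a transcription factor activated by JAK2, and Tmem184b (0.954). Those most like Lmo2 were Rsrp1 (0.996), Il17ra (0.994) and Mri1 (0.993), and those most like Runx1 were Pak2 (0.990), Rae1 (0.988) and Mtmr2 (0.987). Tal1 and Zfpm1 shared Cited4 (0.953 and 0.933) among their closest genes, and Tal1 was also close to Gnas (0.948) and Gp5 (0.942), a platelet glycoprotein gene. The closest gene was Kmt2e for Nfe2 (0.968), Ubl7 for Fli1 (0.929), Adgrl4 for Erg (0.891), Pcdhga11 for Lyl1 (0.946) and E130309D02Rik for Zfpm1 (0.944).

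The cofactors that join these factors were read from a list. Of 28 cofactor genes tested, 3 were higher and 4 lower between vehicle and WT (median log2 fold change 0.05, all genes -0.09), a smaller share than the 33.3% called among all genes. Between combination and vehicle 6 were higher and 2 lower (median 0.26, all genes 0.04), where 12.5% of all genes were called. Ldb1, the protein that Lmo2 binds, was at 41.6, 63.1 and 42.1 CPM in WT, 20.8, 22.9 and 27.6 CPM with vehicle and 84.5, 79.4 and 42.6 CPM with the combination. The vehicle libraries were below all WT and combination libraries, with log2 fold changes of -1.04 ± 0.241 (adjusted p = 0.00899) against WT and 1.54 ± 0.243 (adjusted p = 0.0025) for the combination against vehicle. Tcf12, an E protein partner of Tal1, fell by 0.68 against WT and rose by 0.78 with the combination. Kdm1a, the demethylase of repressor complexes with Gfi1b, rose with the combination against vehicle (1.28) and against WT (0.97), and Cbfb, the partner subunit of Runx1, rose against vehicle (1.88). Id1, an inhibitor of E proteins, was higher with vehicle than in WT (3.29). Paralogs of the members had 0 higher and 4 lower of 16 tested between vehicle and WT (17.9% of all genes lower), among them Runx2 (-1.19) and Ets1 (-1.66), and 4 higher and 0 lower between combination and vehicle, namely Runx2 (1.18), Runx3 (1.62), Lmo1 (2.95) and Elf4 (1.04), where 8.28% of all genes were higher.

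Genes that Gata1 and its partners are known to act on in mature lineages were read from lists. Of 24 erythroid genes, 8 were higher and 0 lower between vehicle and WT, with a median of 1.27, among them Tfrc (2.04), the transferrin receptor, and Icam4 (1.62). Against WT, 13 were higher and 1 lower with AG221, 17 higher and 0 lower with ruxolitinib, and 1 was called with the combination, Icam4 (1.50). Of all genes tested, 15.4% were higher than in WT with vehicle, 22.2% with AG221, 16.1% with ruxolitinib and 1.63% with the combination. The erythroid median against WT was 1.43 with AG221, 1.75 with ruxolitinib and 0.87 with the combination (all genes -0.25, -0.14 and 0.04). Between combination and vehicle it was -0.05 (all genes 0.04). There 2 erythroid genes were higher and 2 lower, where 8.28% of all genes were higher and 4.21% lower. Of 21 megakaryocyte genes, 11 were higher and 2 lower than in WT with vehicle, 6 higher and 4 lower with AG221, 8 higher and 3 lower with ruxolitinib, and 8 higher and 2 lower with the combination. Itga2b, the platelet integrin CD41, was at 182, 137 and 151 CPM in WT and 622, 603 and 549 CPM with vehicle (1.92 ± 0.284, adjusted p = 0.00107). Between combination and vehicle the list had a median of -0.17 (all genes 0.04), with 2 genes higher and 1 lower. The platelet glycoprotein genes Gp5 (3.43, adjusted p = 0.0048) and Gp1bb (4.05, adjusted p = 0.0079) rose, and Vwf, the von Willebrand factor, fell by 0.93 (adjusted p = 0.0458). Of 11 mast cell and basophil genes, 8 were higher and 0 lower between vehicle and WT, with Cpa3 at 2.94 and Fcer1a at 4.51. Against WT, 9 were higher with AG221, 7 with ruxolitinib and 3 with the combination, and 3 were lower between combination and vehicle. Gata1 differed by 0.04 in that comparison. Markers of other cells differed as well. The 11 neutrophil genes summed to 3480 to 3838 CPM in WT, 7858 to 12867 CPM with vehicle, 17459 to 20540 CPM with AG221, 12216 to 19391 CPM with ruxolitinib and 4309 to 7752 CPM with the combination, and the 7 plasma cell genes to 600.2 to 1301 CPM in WT and 35.1 to 218 CPM in the mutant groups. The T cell marker Cd3e was no higher than 1.24 CPM, but the 10 T and NK genes summed to 204 to 267 CPM in WT. They summed to 427 to 487 CPM with vehicle and 622 to 784 CPM with AG221. With ruxolitinib they summed to 445 to 552 CPM and with the combination to 416 to 431 CPM. Of 9 tested, 1 was higher and 0 lower between vehicle and WT, with a median of -1.22. The part of such cells in the member values was not tested.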

How the data were processed

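RNA from sorted CD45.2+ LSK cells was amplified (SMARTer) and sequenced. The authors aligned reads to mm10 with STAR 2.5.1a and deposited raw counts per Ensembl gene, as well as a signal, the DESeq2 1.6.3 normalized counts, which equals the raw counts divided by 1 size factor per library and was checked but not used. The Ensembl release and the strand setting are not given in the sources used here. Symbols, coordinates and transcript GC content came from GENCODE M21 (GRCm38), which matched 44585 of 45232 IDs. Ahsp, an erythroid gene of the lists, had no match.

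The raw counts were fitted with edgeR 4.0.16 (R 4.3.3), using filterByExpr, TMM normalization and a quasi-likelihood test over all 15 libraries in 5 groups, for 11 comparisons. Benjamini-Hochberg adjusted p under 0.05 over 17834 genes was called. CPM used TMM library sizes, log2 CPM a prior count of 2, and TPM the exon length of a gene. The common biological coefficient of variation was 0.313. A count of 0 allows up to 3 counts, or 0.0932 to 0.159 CPM at the library totals, for counting error only, since reads carried no molecular identifiers. The fit was tested on simulated data, with an outcome that is not reported here. The Gata2 over Gata1 balance was compared with exact permutation tests (scipy 1.17.1).

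The members and lists were chosen with earlier results of these data known. All members are named. Of each list up to 4 genes per comparison could be named, those with the smallest adjusted p whose groups do not overlap, besides defining markers and the 3 genes most like each member. Alternatives were DESeq2 1.42.0, RLE and upper quartile normalization, other filters, only the groups compared, no genes of chromosomes X and Y, and each library left out. GC content offsets (lowess, span 0.3), leaving out 3 libraries and using only libraries named A were added after seeing the data. Leaving out the 3 libraries left only A9 in the AG221 group, so a call lost there also comes with fewer libraries.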

Additional observations from a re-analysis of the deposited data

Results flagged for a closer look

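Of the members, 6 differed between the presence and absence of ruxolitinib in their change with AG221, by the interaction test given in the report. The change with AG221 in the presence of ruxolitinib minus that in its absence was 2.41 for Gata2, 2.45 for Zfpm1, 2.25 for Lmo2, 1.97 for Runx1, 1.19 for Tal1 and 1.03 for Nfe2, on the log2 scale. The adjusted p-values (edgeR) ran from 0.0342 for Lmo2 to 0.0474 for Tal1, and 8.42% of all tested genes were called. All 6 calls were lost without any one of 8 libraries, and that of Zfpm1 also with GC content offsets (0.36, adjusted p = 0.742).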

How the results depend on the processing

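There were 26 settings, the main fit included. For 53 of the 110 pairs of a member and a comparison, which include all those called, 830 log2 fold changes were recomputed under alternatives. Of these, 683 kept their direction and side of the threshold, 107 lost the call, 29 gained it and 11 changed sign. Over all 110 pairs, 136 of 1729 changed sign, 2 of them with a call in either fit, both of Lyl1 with GC content offsets. No paired analysis was possible because the replicate names are not shared between groups. Gata1 between combination and vehicle changed sign with upper quartile normalization (-0.0711) and GC content offsets (-0.10), and from -0.35 to 0.36 with a library left out. Lmo2 between combination and WT changed sign with upper quartile normalization (-0.0229). Lyl1 between AG221 and WT changed sign with GC content offsets (0.68) and without AG221 A8, AG221 A10 and Rux A16 (0.0682), and between combination and AG221 under the same settings (-0.94 and -0.22). Zfpm1 between vehicle and WT changed sign with GC content offsets (0.37). The Gata2 over Gata1 balance between ruxolitinib and vehicle ran from -0.95 to 0.25 with a library left out. The causes were not tested. The number of members called between AG221 and vehicle (0) was 2 with DESeq2, 1 without the filter and 1 with GC content offsets, and 0 to 4 with a library left out. It was 1 to 3 with a library left out between combination and vehicle (3) and 1 to 3 between combination and ruxolitinib (3). Between combination and WT (1) it was 3 with DESeq2, 2 with GC content offsets, 0 without chromosomes X and Y, where Gata1 lies, and 0 to 3 with a library left out. Between AG221 and WT (5) it was 2 without the 3 libraries and 4 to 8 with a library left out. Between ruxolitinib and WT (2) it was 1 without chromosomes X and Y and 1 to 2 with a library left out. Between combination and AG221 (6) it was 0 without the 3 libraries, and between AG221 and ruxolitinib (0) it was 1 with DESeq2 and 0 to 4 with a library left out. For the departure from additivity (6) it was 0 in a fit of only the groups compared, 0 without the 3 libraries and 0 to 6 with a library left out. Over all genes the number called ran, with a library left out, from 1901 to 5907 between vehicle and WT (5937), from 0 to 4672 between AG221 and vehicle (176), from 0 to 9 between ruxolitinib and vehicle (3), from 1006 to 1965 between combination and vehicle (2226), from 88 to 415 between combination and WT (579), and from 44 to 6087 for the departure (1502). For AG221 against ruxolitinib (612) it ran from 0 to 4808. With other settings it ran from 109 to 7030 between combination and AG221 (5917) and from 2160 to 10044 between AG221 and WT (9040). At 23 to 339 reads, Zfpm1 is the member most limited by depth.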
